A study of Caenorhabditis elegans with 6 samples.

Results

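A set of 7 genes of S-adenosylmethionine (SAM) and phosphatidylcholine synthesis were followed in *C. elegans* mutant for *nhr-49*, which encodes a nuclear receptor governing fatty acid desaturation and oxidation. They were chosen by name, as genes of the methionine cycle, of phosphoethanolamine methylation and of choline phosphorylation, and all 7 were found among the 46739 rows of the deposited expression table. Whole animals were sequenced in 6 libraries, 3 from *nhr-49(nr2041)* mutants (strain PMD122) and 3 from animals with wild-type *nhr-49* (strain PMD121). Both strains were raised at 20°C on HT115 bacteria carrying the empty RNAi vector throughout development and were harvested as late L4 larvae. They came from the same cross of N2 to STE68, from which F2 homozygotes of either genotype were kept, so each genotype is represented by a single line. The *nr2041* allele is a deletion of part of the gene, so reads from the remainder are still counted in the mutants, and whether it removes all NHR-49 function is uncertain. The replicates are described as biological, and what separated them is not given. Levels are in RPKM, reads of a gene scaled to its length and to the reads of the library, and differences are log2 fold changes of RPKM + 1, mutant over wild-type, which understate the change of genes with few reads.

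SAM is the methyl donor of the cell. Methionine synthase (*metr-1*) makes methionine from homocysteine, and SAM synthetases (*sams-1*, *sams-3*, *sams-4*) turn methionine into SAM. A large user of SAM in worms is phosphatidylcholine, the main membrane phospholipid: PMT-1 adds the first methyl group to phosphoethanolamine and PMT-2 the later ones, giving phosphocholine. Phosphocholine is also made from dietary choline by choline kinases such as *ckb-2*, and both supplies meet at the CDP-choline step. In worms, low SAM or low phosphatidylcholine is known to raise the activity of SBP-1, the SREBP homolog that drives lipogenic genes including the desaturases *fat-5*, *fat-6* and *fat-7*.

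None of these genes passed the test of a difference between genotypes, and *sams-1*, *sams-3* and *sams-4* had log2 fold changes within 0.1 of 0, as did 30.6% of all genes tested. Of the 7 genes, 0 passed limma at an adjusted p under 0.05, where 4.13% of the 13965 genes tested did. Taking p without adjustment, also under 0.05, 1 passed, *pmt-2*, against 13.2% of all genes tested. With limma voom on reads recovered from the RPKM, 0 of 7 passed after adjustment, against 4.13%, and *pmt-2* alone before it, against 12.8%. *pmt-2* was also the only one of the 7 whose mutant libraries did not overlap the wild-type libraries, all of them lying below, as was the case for 3.78% of all genes tested; groups did not overlap in either direction for 21.4%. The median log2 fold change of the 7 genes was 0.02, beside 0.10 over all genes tested. Quantile normalization moved these medians to -0.05 and -0.04.

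The libraries held between 24523159 and 30183162 reads, as implied by the steps of the RPKM values. The level of *nhr-49* was lower in the mutants, 26.1, 22.1 and 26.1 RPKM against 39.4, 40.8 and 37.8 RPKM in wild-type animals (log2 fold change -0.65, limma adjusted p = 0.0164). The deleted part of the gene gives no reads in the mutants, so these values do not show fewer transcripts. The *nhr-49* call was lost without mutant replicate 2 or without any 1 of the wild-type libraries (adjusted p from 0.0551 to 0.0930 from limma). A second principal component, holding 22.4% of the variance, set mutant replicate 1 and wild-type replicate 2 apart from the rest. In these whole animals the summed germline markers were lowest in those same libraries, at 472 RPKM in mutant replicate 1 against 804 and 1103 RPKM in the other mutant libraries, and at 646 RPKM in wild-type replicate 2 against 1088 and 1000.3 RPKM in the other wild-type libraries. Fewer cells of a tissue and less RNA per cell cannot be told apart here.

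*sams-1*, the main SAM synthetase of the intestine and body, was the most abundant of the 7 transcripts in both genotypes. The gene lies on chromosome X from 11965962 to 11969893 (WBcel235). Its level was 529, 509 and 519.6 RPKM in the mutant libraries, against 469.5, 616 and 509 RPKM in the wild-type libraries. The mutant values fell inside the wild-type range, whose upper end is wild-type replicate 2. The log2 fold change was -0.025 (SE 0.12, 95% interval from -0.31 to 0.26, limma adjusted p = 0.947). Each library held at least 27826 *sams-1* reads, so counting error is small beside the spread between libraries. Over the 6 libraries the mean exceeded that of 98.2% of the genes tested.

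*sams-3* and *sams-4* encode further SAM synthetases that are close copies of each other. They sit on chromosome IV, *sams-4* on the minus strand from 5844061 to 5846369 and *sams-3* on the plus strand from 5848657 to 5850843, with 2287 bases between them. How reads matching both copies were assigned is not given in the sources used here, so the split between them is uncertain. *sams-3* was at 74.8, 70.7 and 75.8 RPKM in the mutants, against 78.2, 69.2 and 71.2 RPKM in wild-type animals (log2 fold change 0.018, 95% interval from -0.22 to 0.25, limma adjusted p = 0.953). *sams-4* was at 69.6, 66.3 and 67.4 RPKM in the mutants, against 71.2, 58.2 and 65.2 RPKM in wild-type animals (log2 fold change 0.067, 95% interval from -0.19 to 0.32, limma adjusted p = 0.833). The groups overlapped for both genes, and both signs turned negative under quantile normalization and with library medians set equal. Summed, which does not depend on the split, they stood at 144, 137 and 143 RPKM in the mutants and at 149, 127 and 136 RPKM in wild-type animals. *sams-3* shares 18 bases with C06E7.4 on the other strand, and whether reads were counted by strand is not stated.

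No difference between genotypes in the make-up of the SAM synthetase pool was resolved with these libraries. *sams-5*, a family member with few reads, was at 10.8, 10.8 and 15.04 RPKM in the mutants and at 13.3, 7.70 and 12.5 RPKM in wild-type animals, and the 4 genes together came to 684, 656 and 678 RPKM in the mutants and 632, 752 and 658 RPKM in wild-type animals. *sams-1* supplied 77.3%, 77.5% and 76.7% of that sum in the mutants, against 74.3%, 82.0% and 77.4% in wild-type animals. The mean share was 77.2% ± 0.439 in the mutants and 77.9% ± 3.90 in wild-type animals (SD, n = 3 each), a difference of -0.74 percentage points (p = 0.80, exact permutation test, two-sided). With 3 libraries against 3 this test cannot give p below 0.10. The difference turned to 1.33 without wild-type replicate 2, the library with the highest share.

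*metr-1*, the vitamin B12-dependent methionine synthase on chromosome II (10926561 to 10931078), varied more between libraries than between genotypes. Its level was 167, 89.6 and 113.3 RPKM in the mutants, against 143, 172 and 121 RPKM in wild-type animals. The highest library of each genotype was the one that stood apart, and the groups overlapped widely. The log2 fold change was -0.27 (SE 0.23, 95% interval from -0.82 to 0.28, limma adjusted p = 0.675), so neither a fall of 0.5 nor a small rise lies outside the interval. Without mutant replicate 1 it was -0.51 (adjusted p = 0.257), and without mutant replicate 2 it was -0.067 (adjusted p = 0.924).

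**Figure D1:**
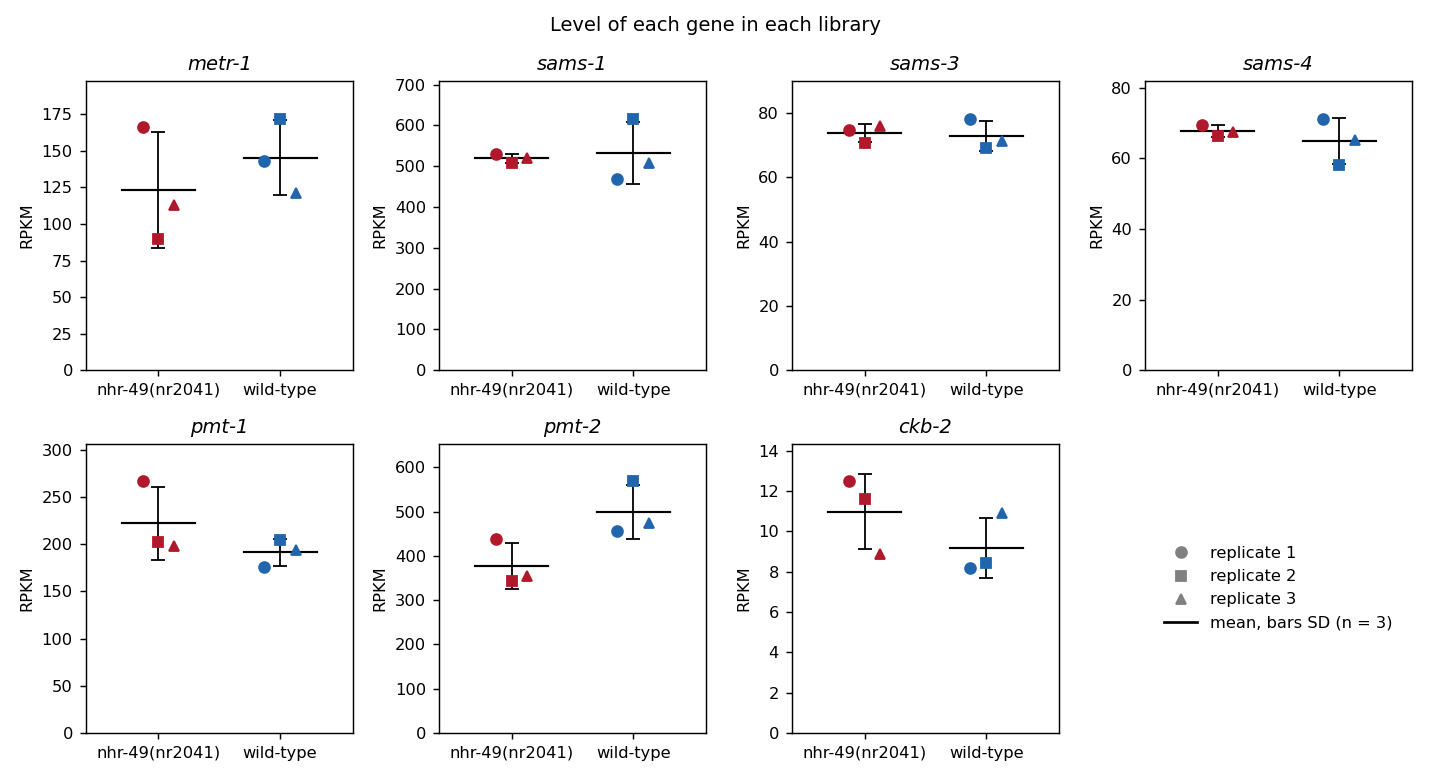
RPKM of each gene (vertical axes, starting at 0) in the 3 *nhr-49(nr2041)* libraries, left, and the 3 wild-type libraries, right; lines and bars are the mean and SD (n = 3). Only *pmt-2* has all mutant libraries (342 to 437 RPKM) below all wild-type libraries (455 to 568 RPKM).

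Of the phosphoethanolamine methyltransferases, *pmt-2* was lower in every mutant library without passing the test, and *pmt-1* overlapped between genotypes. *pmt-2* (chromosome V, 4628580 to 4635263), which carries out the later methylations, was at 437, 342 and 353 RPKM in the mutants, against 455, 568 and 475 RPKM in wild-type animals. Every mutant library lay below every wild-type library, though the highest mutant value was close to the lowest wild-type value. The means were 378 ± 51.96 RPKM in the mutants and 499 ± 60.2 RPKM in wild-type animals (SD, n = 3 each). The log2 fold change was -0.40 (SE 0.14, 95% interval from -0.73 to -0.08), with an unadjusted p of 0.0217 and an limma adjusted p = 0.252. It was negative under all 15 alternative settings, with adjusted p from 0.00887 to 0.534. The lowest of these came without both libraries that stood apart, when the log2 fold change was -0.42 and *pmt-2* was the only one of the 7 genes to pass; 9.31% of all genes tested passed then, 6.8% as higher and 2.51% as lower.

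*pmt-1* (chromosome II, 5278090 to 5282523), which adds the first methyl group, did not share the lower level of *pmt-2*. It was at 266, 203 and 198 RPKM in the mutants, against 176, 205 and 194 RPKM in wild-type animals. The groups overlapped, with mutant replicate 1 well above the rest. The log2 fold change was 0.20 (SE 0.14, 95% interval from -0.13 to 0.54, limma adjusted p = 0.611), and 0.066 without mutant replicate 1.

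Set against each other within a library, where the scaling of the library cancels, the ratio of the pair did not overlap between genotypes. The ratio reuses the *pmt-2* values, which did not overlap by themselves, as was so for 21.4% of single genes tested in either direction. How many other gene pairs would not overlap was not computed. *pmt-2* exceeded *pmt-1* by 1.64, 1.69 and 1.79 times in the mutant libraries and by 2.59, 2.78 and 2.45 times in the wild-type libraries. The mean log2 ratio of *pmt-1* to *pmt-2* was -0.77 ± 0.06 in the mutants and -1.38 ± 0.09 in wild-type animals (SD, n = 3 each). The difference of 0.61 was several times the SD of either group, and the exact permutation test, two-sided, gave p = 0.10, the smallest value 3 libraries against 3 allow. It lay between 0.56 and 0.65 with any 1 library left out, and was 0.54 without both libraries that stood apart. The log2 ratio of *sams-1* to *pmt-2* was 0.28, 0.57 and 0.56 in the mutants and 0.04, 0.12 and 0.10 in wild-type animals. That ratio reuses the same *pmt-2* values, so it is not a separate difference. The log2 ratios of *metr-1* to *sams-1* and of *sams-3* to *sams-4* overlapped between genotypes. None of these further ratios was tested.

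**Figure D2:**
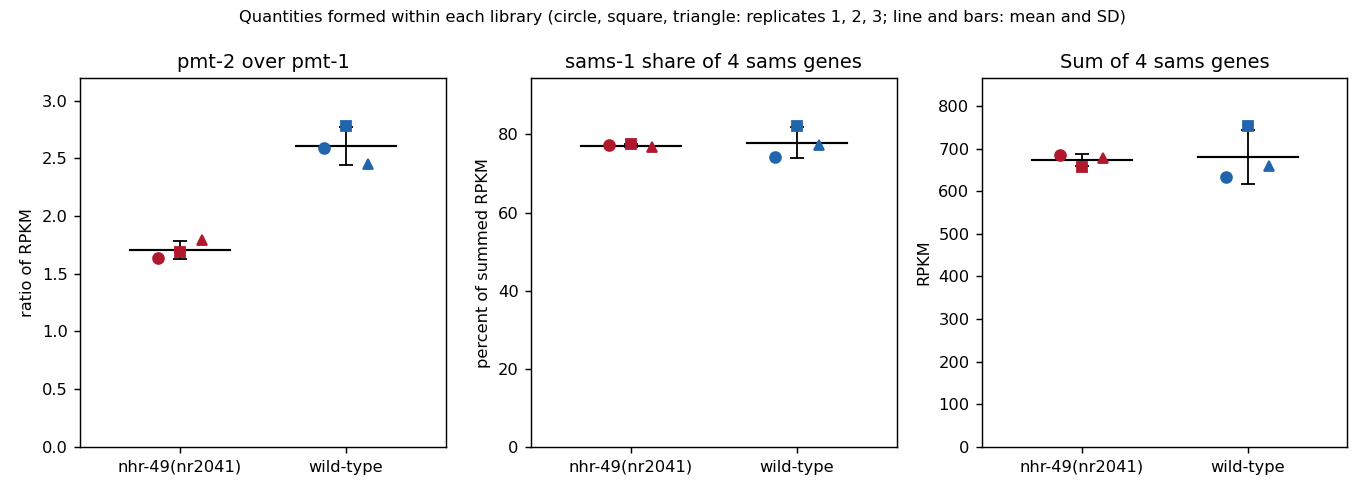
Quantities formed within each library for the 3 *nhr-49(nr2041)* libraries, left in each panel, and the 3 wild-type libraries, right: the RPKM of *pmt-2* divided by that of *pmt-1*, the share of *sams-1* in the summed RPKM of *sams-1*, *sams-3*, *sams-4* and *sams-5* in percent, and that sum in RPKM. The ratio is 1.64 to 1.79 in the mutants and 2.45 to 2.78 in wild-type animals, while the share and the sum overlap between genotypes.

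*ckb-2*, a choline kinase gene on chromosome III (4367949 to 4370160), was the lowest of the 7. It was at 12.5, 11.6 and 8.87 RPKM in the mutants, against 8.19, 8.44 and 10.9 RPKM in wild-type animals, from 325 to 409 reads a library. Mutant replicates 1 and 2 were above all wild-type libraries and mutant replicate 3 was not. The log2 fold change was 0.23 (SE 0.18, 95% interval from -0.18 to 0.65, limma adjusted p = 0.638). A short noncoding RNA gene, *srpr-1.2*, lies inside *ckb-2* on the same strand.

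The order of the levels per length was the same in both genotypes: *sams-1*, *pmt-2*, *pmt-1*, *metr-1*, *sams-3*, *sams-4* and *ckb-2*. In the mutants no neighbours in this order overlapped in range. In wild-type animals *sams-1* and *pmt-2* overlapped, as did *sams-3* and *sams-4*, although the first of each pair was higher in all 3 libraries. For 4 of the 7 genes, *sams-1*, *metr-1*, *pmt-1* and *pmt-2*, the highest mutant library was replicate 1 and the highest wild-type library was replicate 2, a pattern that 28.6% of all genes tested showed. The germline marker score, the mean log2(RPKM + 1) of 17 tested markers, was 4.21 in mutant replicate 1 and 4.48 in wild-type replicate 2, and 4.80 to 5.23 in the other 4 libraries. The part of germline content in the levels of these 4 genes was not tested.

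**Figure D3:**
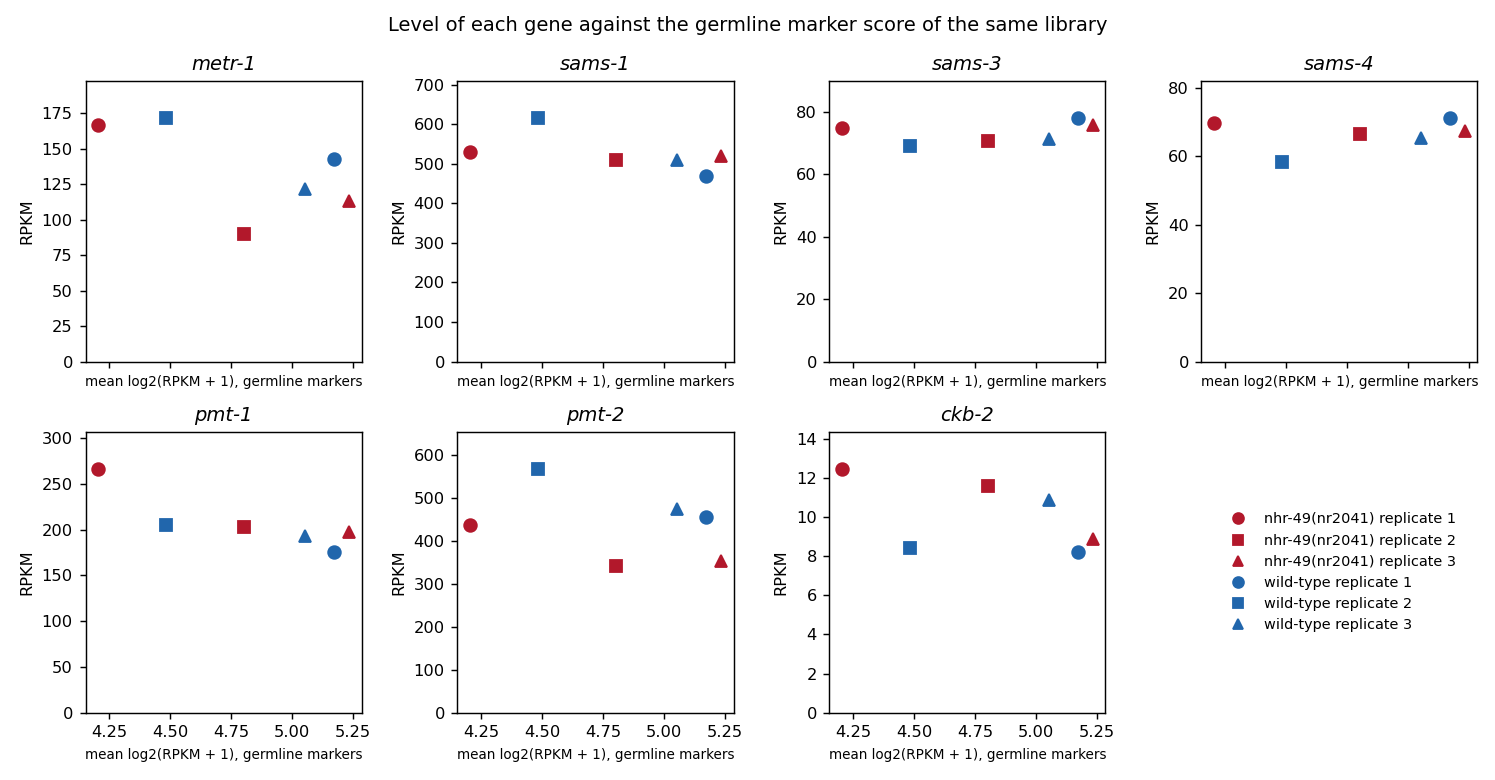
RPKM of each gene (vertical axes, starting at 0) against the germline marker score of the same library (horizontal axes, mean log2(RPKM + 1) of 17 genes), with *nhr-49(nr2041)* libraries in red and wild-type libraries in blue. *sams-1*, *metr-1* and *pmt-1* are each highest in the libraries with the lowest scores (4.21 and 4.48). The part of germline content in these levels was not tested.

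Other tissue markers were present as whole animals require, and 1, *mtl-2*, passed the test. Body wall muscle markers summed to 8309 to 9337 RPKM in the mutants and 9632 to 10030.3 RPKM in wild-type animals, and 8 of 12 had all mutant libraries below all wild-type libraries, as had 3.78% of all genes tested, while 0 passed the test, against 4.13%. Only 1 of these 12 had a positive log2 fold change, with a median of -0.36, and of -0.34 under quantile normalization. Of the 17 germline markers tested, 4 had a positive log2 fold change and 0 passed. Their median was -0.17, and -0.32 under quantile normalization. Intestine markers summed to 6543 to 8154 RPKM in the mutants and 5956 to 6704 RPKM in wild-type animals. Of the 14 tested, 13 had a positive log2 fold change, with a median of 0.18 beside 0.10 over all genes tested, and 1, the metallothionein *mtl-2*, rose, against 3.32% of all genes tested. Hypodermis and cuticle markers summed to 6165 to 7911 RPKM in the mutants and 6658 to 7359 RPKM in wild-type animals, with 0 of 12 passing. Sperm markers summed to 361, 467 and 500.5 RPKM in the mutants and to 537, 218 and 509 RPKM in wild-type animals. In each genotype that sum was lowest in the library that stood apart. Neuron markers summed to 372 to 495 RPKM in the mutants and 326 to 384 RPKM in wild-type animals. In the sperm and neuron lists alike, 0 of 10 passed. All 10 neuron markers had a positive log2 fold change, with a median of 0.28, and of 0.17 under quantile normalization. Positive values were common, as only 35.4% of all genes tested lay below 0.018, the log2 fold change of *sams-3*. Of the defining markers, only the sperm gene *msp-31* was at 0 in most libraries, and *end-3*, an embryonic endoderm gene of the intestine list, stayed at or under 0.29 RPKM. The part of these tissues in the lower *pmt-2* level was not tested.

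In the wider methionine cycle with folate and transsulfuration, an enzyme of cysteine synthesis was the only one to pass. Of 24 genes on that list, all tested, 0 rose and 1 fell, where 3.32% of all genes tested rose and 0.816% fell, and the median log2 fold change was 0.02. *cth-1*, a cystathionine gamma-lyase that completes the transfer of sulfur from homocysteine to cysteine, was at 160, 169 and 123 RPKM in the mutants, against 295, 354 and 262 RPKM in wild-type animals. The groups were far apart (log2 fold change -1.01, SE 0.16, limma adjusted p = 0.0133, and 0.0527 without wild-type replicate 1). Its relative on the list, *cth-2*, overlapped between genotypes (log2 fold change -0.005, limma adjusted p = 0.989). *cth-2* was at 195, 169 and 165 RPKM in the mutants, against 169, 173 and 188 RPKM in wild-type animals. *ahcy-1*, which breaks down the S-adenosylhomocysteine left by methylation, was lower in every mutant library, at 1592, 1594 and 1792 RPKM against 1986, 2296 and 2033 RPKM in wild-type animals, without passing (log2 fold change -0.34, limma adjusted p = 0.186). *cbs-1*, a cystathionine beta-synthase gene, and *folt-2*, a folate transporter gene, were higher in every mutant library and did not pass (log2 fold changes 0.45 and 0.61, limma adjusted p = 0.170 and 0.121). Without both libraries that stood apart, 4 genes of the list rose and 2 fell, where 6.8% of all genes tested rose and 2.51% fell. Those that fell were *cth-1* and *mtrr-1*, the reductase that keeps methionine synthase active, which is named here after its values were seen.

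On the list of the CDP-choline and CDP-ethanolamine routes, which is not limited to steps after phosphocholine, the share of genes that rose was near that of all genes. Of 24 genes of the CDP-choline and CDP-ethanolamine routes and phospholipid supply, 23 were tested, 1 rose and 0 fell, where 3.32% of all genes tested rose and 0.816% fell. Their median log2 fold change was 0.16, beside 0.10 over all genes tested, and under quantile normalization it was 0.039, beside -0.04. The gene that rose was *pcyt-1*, the enzyme that turns phosphocholine into CDP-choline. It was at 65.7, 50.5 and 53.2 RPKM in the mutants, against 26.8, 33.2 and 34.9 RPKM in wild-type animals, with no overlap. Its log2 fold change was 0.82 (SE 0.15, limma adjusted p = 0.0232). The call was lost without mutant replicates 2 or 3 (adjusted p = 0.0576 and 0.0609) and without wild-type replicates 1 or 3 (adjusted p = 0.0952 and 0.0618), while the log2 fold change stayed between 0.69 and 0.89 under every setting tried.

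*cept-1*, a phosphotransferase gene for the step that completes phosphatidylcholine, was at 46.9, 38.4 and 35.9 RPKM in the mutants against 24.6, 29.0 and 24.8 RPKM in wild-type animals (log2 fold change 0.61, limma adjusted p = 0.0601). *pcyt-2.1*, listed as Y37E3.11, which acts at the matching step for ethanolamine, was at 57.3, 48.4 and 55.5 RPKM in the mutants against 36.6, 38.1 and 40.0 RPKM in wild-type animals (log2 fold change 0.48, limma adjusted p = 0.0623). *psd-1*, the mitochondrial phosphatidylserine decarboxylase gene, differed by 0.41 on the log2 scale (limma adjusted p = 0.215). None of these 3 passed, and all 3 were higher in every mutant library. Their relatives on the list, *cept-2* and *pcyt-2.2* (listed as C39D10.3), overlapped between genotypes (log2 fold changes -0.019 and -0.008, limma adjusted p = 0.959 and 0.990). In all, 9 of the 23 genes had mutant libraries above all wild-type libraries and 0 had them below, where 17.6% of all genes tested lay above and 3.78% below. Without both libraries that stood apart, 4 of the 23 rose and 0 fell, where 6.8% of all genes tested rose and 2.51% fell.

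**Figure D4:**
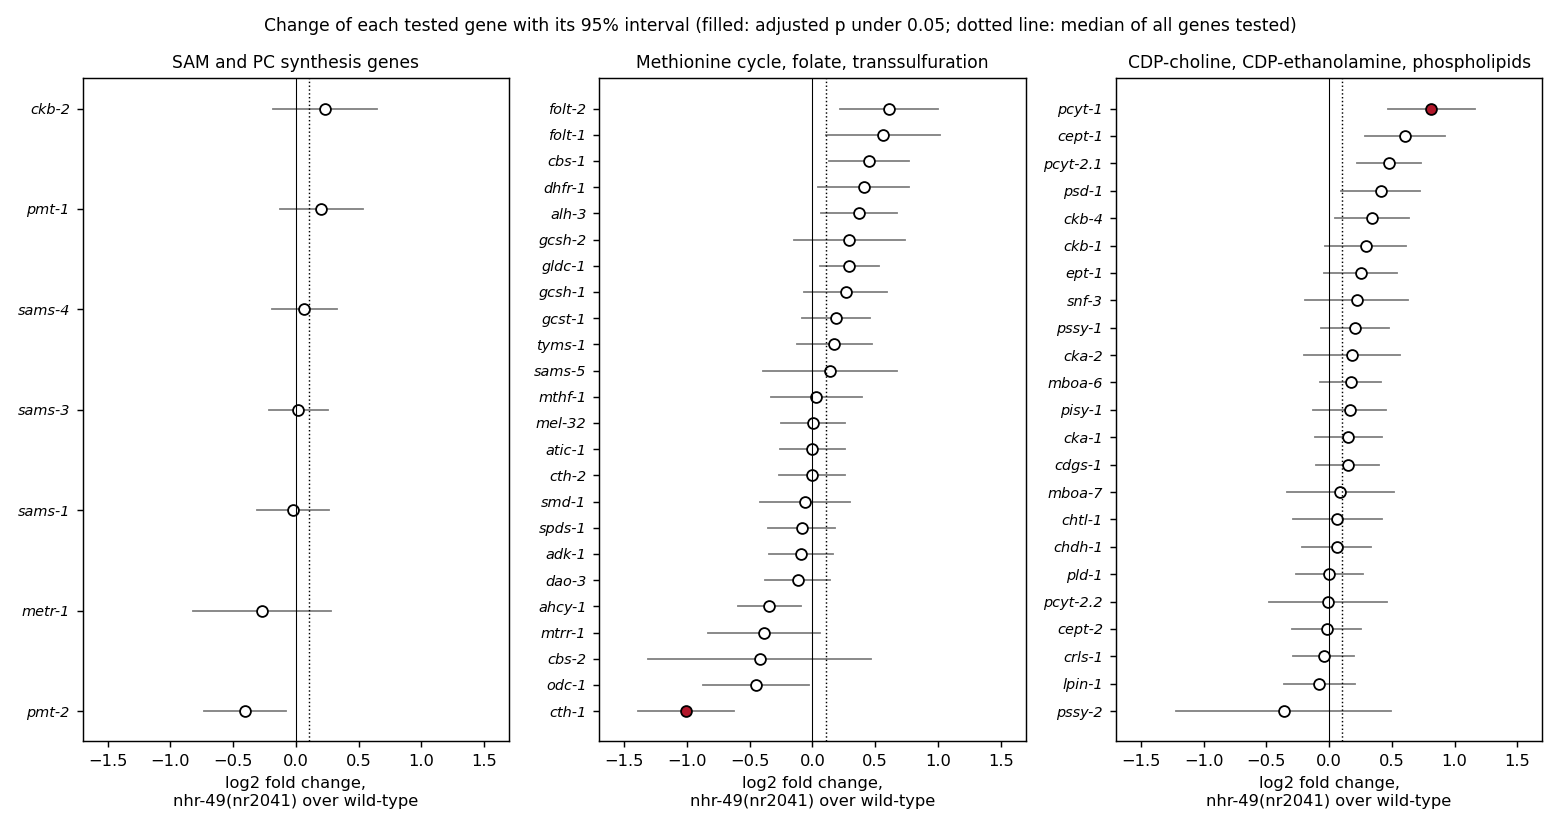
Log2 fold change of each tested gene, *nhr-49(nr2041)* over wild-type, on the log2(RPKM + 1) scale (horizontal axes) with its 95% interval from limma, for the 7 genes, 24 genes of the methionine cycle, folate and transsulfuration, and 23 genes of the CDP-choline and CDP-ethanolamine routes; filled points passed at an adjusted p under 0.05. Only *cth-1* (-1.01) and *pcyt-1* (0.82) are filled, and the 7 genes run from -0.40 to 0.23.

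Among other users of SAM, 16 of 17 listed methyltransferase genes were tested, 1 rose and 1 fell, beside 3.32% and 0.816% of all genes tested. Both belong to the catechol O-methyltransferase family. *comt-3* was at 61.8, 64.8 and 49.7 RPKM in the mutants, against 24.0, 27.2 and 23.8 RPKM in wild-type animals (log2 fold change 1.195, limma adjusted p = 0.00171), a call kept under all 15 settings. *comt-5* was at 1.67, 1.31 and 1.44 RPKM in the mutants, against 3.20, 4.29 and 3.66 RPKM in wild-type animals (log2 fold change -0.93, limma adjusted p = 0.0187). That call was lost without mutant replicate 2 (adjusted p = 0.103), mutant replicate 3 (0.0748) or wild-type replicate 3 (0.0963). *comt-2* and *anmt-2*, a nicotinamide N-methyltransferase gene, did not pass (log2 fold changes 0.53 and -0.22, limma adjusted p = 0.336 and 0.526).

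Of 12 regulators tied to SAM, vitamin B12 or phosphatidylcholine, 0 rose and 1 fell, beside 3.32% and 0.816% of all genes tested. The 1 that fell was *nhr-49*, the gene deleted in part in the mutants, so none of the other regulators passed. *nhr-114*, a nuclear receptor gene known to activate methionine cycle genes when SAM runs low, was at 57.6, 64.6 and 75.6 RPKM in the mutants, against 101, 102 and 91.3 RPKM in wild-type animals. The groups did not overlap, and the log2 fold change of -0.57 fell short of the threshold (limma adjusted p = 0.0551, and between 0.0223 and 0.239 over the 15 settings, 5 of which passed it). *nhr-66* and *nhr-80*, which encode partners of NHR-49, had log2 fold changes of 0.61 and 0.37 (limma adjusted p = 0.153 and 0.187). *sbp-1* itself was at 9.59, 13.9 and 12.4 RPKM in the mutants, against 12.2, 14.0 and 14.6 RPKM in wild-type animals, with overlapping groups.

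Of 9 lipogenic enzymes under SBP-1 control, 3 fell and 1 rose, where 0.816% of all genes tested fell and 3.32% rose. The falls were the desaturases *fat-5*, *fat-6* and *fat-7*, also known targets of NHR-49 (log2 fold changes -3.78, -1.55 and -5.23), and the rise was the elongase *elo-2* (log2 fold change 0.73, limma adjusted p = 0.00744). The *elo-2* call was lost without mutant replicate 2 (adjusted p = 0.0503) and without wild-type replicate 3 (0.0520). Of 11 propionate genes whose expression or activity depends on vitamin B12, the cofactor of methionine synthase, 0 passed, beside 4.13% of all genes tested. They included *acdh-1*, a known sensor of low B12, at 2469, 2033 and 1872 RPKM in the mutants and 1831, 1991 and 1507 RPKM in wild-type animals (log2 fold change 0.26, limma adjusted p = 0.539), and the propionyl-CoA carboxylase genes *pcca-1* and *pccb-1* (log2 fold changes -0.28 and -0.35, adjusted p = 0.379 and 0.403). *mce-1*, the epimerase that follows them, differed by -0.29 on the log2 scale (adjusted p = 0.553).

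The genes whose levels over the 6 libraries followed *sams-1* most closely, among 7502 with a mean of at least 10 RPKM, were *rpl-24.1* (Pearson r = 0.98), *aat-3* (0.97), *his-3* (0.97), M02H5.8 (0.97) and *rpl-17* (0.96). These correlations of log2(RPKM + 1) describe 6 libraries only, and 8 genes exceeded 0.95. Like *sams-1*, all 5 were highest in wild-type replicate 2 and lowest in wild-type replicate 1, with log2 fold changes between genotypes from -0.10 to -0.02.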

How the data were processed

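The authors sequenced poly(A) RNA of whole animals as paired ends and processed the reads in CLC Genomics Workbench 9.5; the submitters' processing notes name build WBcel235. The sources used here give neither mapping settings nor annotation version. The deposited values are RPKM per gene and library, computed by the authors, with the mean RPKM of each genotype, which equalled the mean of its 3 libraries within a relative difference of 3.2e-14. Whole reads were recovered from the RPKM as the smallest whole numbers that give them, within 0.01 reads, for 100.0% of 19579 genes above 0. They were used for read numbers, for counting error and in the limma voom alternative only. Coordinates and current names came from Ensembl 115 and RefSeq tables of WBcel235.

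Genotypes were compared with limma 3.58.1 (eBayes with trend and robust) under R 4.3.3 on log2(RPKM + 1). The 13965 genes reaching 1 RPKM in 3 or more libraries were tested, with genotype as the only term and Benjamini-Hochberg adjustment over all of them. The steps were tested on simulated data. Ratios within libraries were compared by exact permutation tests in scipy 1.17.1; figures used matplotlib 3.10.9. Alternatives were library medians set equal, quantile normalization, no filter, at least 5 RPKM, pseudocounts of 0.1 and 0.5, a replicate block, each library left out, both libraries that stood apart left out, limma voom on recovered reads, and the study's added threshold of 0.5 on the log2 fold change. The genes and gene lists were chosen with earlier results of these data known. Beyond the 7 genes, the text names genes of each list that passed or had its smallest adjusted p values, and the 5 genes most correlated with *sams-1*. The genes *sams-5*, *sbp-1*, *mtrr-1*, *cth-2*, *cept-2*, *pcyt-2.2*, *msp-31* and *end-3* fall outside this rule and were named with their values known. Replicates come from labels only, so p-values measure the spread between these libraries. The *hsf-1* data that the study took from elsewhere were not analysed here.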

Additional observations from a re-analysis of the deposited data

How the results depend on the processing

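The number of genes changed, 577, was 396 with the replicate block, between 382 (without wild-type replicate 3) and 635 with 1 library left out, and 1300 without both libraries that stood apart. The number of the 7 genes that passed was 0 under every setting but the last, where it was 1, *pmt-2* (adjusted p = 0.00887 from limma). *pmt-2* and *metr-1* were lower, and *pmt-1* and *ckb-2* higher, in the mutants under all 15 settings, with 1 library left out from -0.51 to -0.31, -0.51 to -0.067, 0.066 to 0.28 and 0.14 to 0.37 on the log2 scale. The differences of *sams-1*, *sams-3* and *sams-4*, all near 0, changed sign. *sams-1* ran from -0.11 to 0.086 with 1 library left out and was 0.072 without both libraries; *sams-3* ran from -0.017 to 0.069 and was -0.11 with library medians set equal, -0.093 with quantile normalization and -0.027 without both libraries; *sams-4* ran from -0.0076 to 0.14 and was -0.057, -0.050 and -0.027 under those settings. The share of *sams-1* differed by -2.54 to 1.33 percentage points with 1 library left out and by 1.24 without both, and the *pmt-1* to *pmt-2* log2 ratio by 0.56 to 0.65 and by 0.54. These runs without both libraries were added after the data were seen. With 3 libraries a group or fewer the exact test cannot give p below 0.10, so it cannot pass at 0.05. Same-numbered libraries did not deviate together in all pairs (r from -0.33 to 0.34), so the numbers were not taken as pairs; under the block the *pcyt-1*, *comt-5* and *nhr-49* calls were lost (adjusted p = 0.121, 0.102 and 0.0965 from limma). Depth of 325 reads or more per library and gene does not limit the 7 genes; the spread between 3 libraries does, most for *metr-1*.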
